A study of Mus musculus with 4 samples.

Results

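The genes described here are 43 genes of DNA replication and S phase, taken by their symbols from tables that list 24411 genes for each of 4 RNA-seq libraries. The cells were 4T1, a widely used transplantable line from a mouse mammary tumour. A gene was kept if it reached a level of at least 1 TPM (estimated reads divided by transcript length and scaled to a fixed sum per library) in at least 1 library. All 43 genes met this rule, and none lay outside it. The gene nearest to the limit was Ccne2, with a highest value of 2.37 TPM. The members were listed by function, and earlier results of these data were known when they were chosen.

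Of the libraries, 2 are labelled as controls and 2 as CD95ko, from cells in which the gene of the death receptor CD95 (Fas) was targeted. Per the labels' protocols, 4T1 cells were transduced with a lentivirus that carries Cas9 and a blasticidin resistance gene, guides for the removal of exon 9 of the gene were transfected, and single cells were grown into clones. The RNA came from control cells, from the Cas9-expressing line and from 2 clones, so each CD95ko library stands for 1 clone. The titles do not say which control is which, so the groups may differ in Cas9, in selection and in single-cell cloning as well as in CD95, and these cannot be told apart. The question set by this design is which transcripts differ after CD95 disruption, and here it is put to the replication genes. The libraries are named below by their labels, as control 1, control 2, CD95ko 1 and CD95ko 2.

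DNA is copied once per cell cycle. In G1, the origin recognition complex, CDC6 and CDT1 load the ring-shaped MCM helicase on DNA, and in S phase CDC45 and GINS turn it into the active helicase that polymerases follow. A sliding clamp (PCNA) holds polymerases on DNA, nucleotide enzymes supply the building blocks, and chromatin factors pack the new strands. Transcripts of many of these genes peak around the G1/S transition, when cyclin E kinase activity relieves the RB block on the E2F transcription factors, and in a growing tumour line they follow the share of dividing cells. In bulk RNA, fewer cells in S phase and less RNA per cell cannot be told apart.

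Because E2F binding in promoters is the textbook feature that ties this group together, the 250 bases before the annotated start sites were searched on both strands for the E2F core, spelled here as TTCCCGC or its variants with other inner letters, namely TTCGCGC and also TTGCCGC and also TTGGCGC. Matches that overlapped each other were kept. RefSeq promoter sequences (GRCm38.p6) were found for 36 of the 43 genes, and 15 of these 36 (41.7%) held a core. The share was 17.3% among the 8549 genes tested here that have a RefSeq promoter, and 9.0% among all 27025 genes with one. The CCAAT box, another common promoter element spelled as it is named, was found in 58.3% of the members, in 41.2% of the tested genes and in 37.5% of all genes. The CHR, an element of genes of late cell cycle phases spelled TTTGAA or TTCGAA, was found in 16.7% of the members, 14.1% of the tested genes and 19.6% of all genes. The windows below are shown because they carry E2F cores (in capitals) in members that behaved differently in these libraries: Pola1 and Rrm1 were lower in both CD95ko libraries, Mcm7 was higher in both, Rpa2 and Rrm2 were low in CD95ko 2, and Mcm5 and Mcm6 overlapped between the groups. In GRCm38 the windows lie at chrX:93632250-93632344 (Pola1, reverse strand), chr7:102441608-102441654 (Rrm1, forward), chr5:138171353-138171399 (Mcm7, reverse), chr4:132768303-132768349 (Rpa2, forward), chr12:24708004-24708045 (Rrm2, forward), chr8:75109325-75109386 (Mcm5, forward) and chr1:128359722-128359834 (Mcm6, reverse). Each window runs 5′ to 3′ on the strand of its gene. For Mcm7, the window of another start site also held a core (chr5:138172022-138172068) and is not shown. Both Mcm7 windows lie within the annotated span of the gene. A match describes letters, not a bound site.
Pola1: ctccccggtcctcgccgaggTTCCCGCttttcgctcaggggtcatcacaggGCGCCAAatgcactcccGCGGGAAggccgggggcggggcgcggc
Rrm1: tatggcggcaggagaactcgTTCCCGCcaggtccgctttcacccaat
Mcm7: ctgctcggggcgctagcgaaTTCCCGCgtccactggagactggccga
Rpa2: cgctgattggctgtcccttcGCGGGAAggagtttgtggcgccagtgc
Rrm2: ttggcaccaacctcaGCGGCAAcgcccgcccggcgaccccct
Mcm5: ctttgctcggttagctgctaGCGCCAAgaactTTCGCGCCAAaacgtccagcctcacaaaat
Mcm6: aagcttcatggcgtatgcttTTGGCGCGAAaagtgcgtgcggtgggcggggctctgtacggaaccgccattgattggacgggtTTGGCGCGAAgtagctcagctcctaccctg

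The 4 libraries listed between 11193 and 12010 genes above 0, and depth is unknown from TPM. Markers of the labelled cell type were present, and all 10 epithelial markers were above 0 in every library. Their summed level was 6307 to 6778 TPM in the controls and 10183 to 14367 TPM in the CD95ko libraries. Single markers differed in direction. Krt18 was at 1707 and 1753 TPM in the controls and at 2412 and 5160 TPM in CD95ko 1 and 2. Cldn3 was at 671 and 615 TPM in the controls and at 441 and 336 TPM in CD95ko 1 and 2. Of 6 fibroblast markers 3 (Col3a1, Pdgfrb and Dcn) were listed at 0 in all libraries, and the list summed to between 0.97 and 4.52 TPM. Of 7 leukocyte markers 6, Ptprc among them, were listed at 0 throughout, and the seventh, Cd14, stood at 12.0 and 4.13 TPM in the controls and at 12.95 and 102 TPM in CD95ko 1 and 2. Endothelial markers summed to at most 0.28 TPM. The targeted gene, Fas (chr19:34290666-34327772, forward strand), was at 49.4 and 39.2 TPM in the controls and at 15.8 and 49.5 TPM in CD95ko 1 and 2 (log2 difference -0.63 ± 0.54 SE, limma adjusted p = 0.615, and 0.16 without CD95ko 1). It was low in CD95ko 1 alone, and gene-level TPM also counts the exons outside the targeted one, so it does not check the deletion. Ribosomal protein genes took 22.7% and 27.2% of the TPM in control 1 and 2 and 23.4% and 21.3% in CD95ko 1 and 2.

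All but 2 of the replication genes were above 0 in every library, the exceptions being Pole2, listed at 0 in CD95ko 2, and Ccne2, listed at 0 in CD95ko 1. Their median level was 31.7 and 28.4 TPM in control 1 and 2 and 29.0 and 22.1 TPM in CD95ko 1 and 2, beside medians of 22.3, 16.3, 22.9 and 21.3 TPM over all 11167 genes tested. Summed over the 43 genes, they made up 1696 and 1643 TPM in the controls, 1720 TPM in CD95ko 1 and 1338 TPM in CD95ko 2, so the last library stood below the other three. By mean over the libraries, Pcna (162 TPM), Cdt1 (108 TPM) and Tk1 (104 TPM) were the most abundant, and Ccne2 (1.24 TPM), Cdc6 (1.60 TPM) and Pole2 (3.58 TPM) the least.

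**Figure D1:**
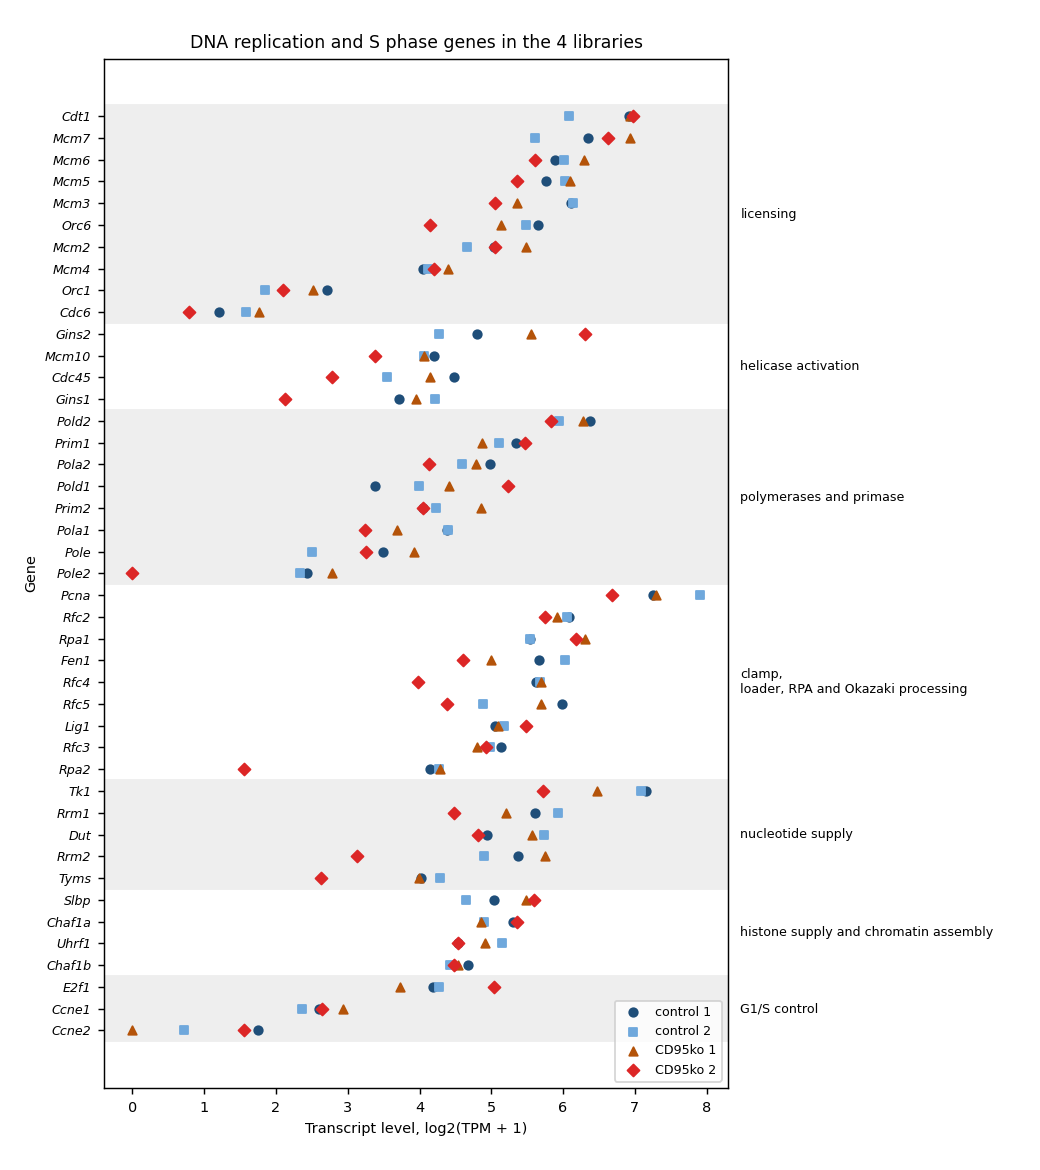
Level of each of the 43 genes in each library, as log2(TPM + 1) on the horizontal axis, with genes grouped by role and ordered by mean level within a role. Symbols mark the 4 libraries, and a symbol can cover another at the same value. CD95ko 2 (diamonds) lies farthest to the left for 25 of the genes, and for Pole2, Rpa2 and Rrm2 it lies far from the other libraries.

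Between the groups, no replication gene passed an adjusted p of 0.05 in limma, and the smallest adjusted p was 0.209, for Gins2. Over all 11167 genes tested, 6 passed (0.0537%). An unadjusted p under 0.05 was reached by 5 of the 43 genes. Of these, 2 were higher in the CD95ko libraries (Gins2 and Pold1), where 9.25% of all genes tested were called in that direction, and 3 were lower (Tk1, Fen1 and Mcm3), where 5.68% of all genes were. Together this was 11.6% of the members beside 14.9% of all genes, so the members were called about as often as other genes. With control 2 left out, no member had an unadjusted p under 0.05, beside 4.2% of all genes. With CD95ko 1 left out, 14 members had (32.6%), beside 24.3% of all genes. The effect of leaving out 1 library is described further down.

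Without a test, both CD95ko values lay above both control values for 9 genes and below both for another 9 (6 above and 12 below under quantile normalization). Over all genes tested, the corresponding shares were 29.2% higher and 18.3% lower. In all, 41.9% of the members and 47.6% of all genes had groups that did not overlap. The median log2 difference between CD95ko and control was -0.15 over the members and 0.13 over all genes. Differences were negative for 27 members and positive for 16, beside 4759 negative and 6408 positive among the 11167 genes tested. The median of the members was 0.07 for CD95ko 1 and -0.32 for CD95ko 2, each against the mean of the same controls, beside 0.19 and 0.10 over all genes. The negative median thus rested on CD95ko 2.

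**Figure D2:**
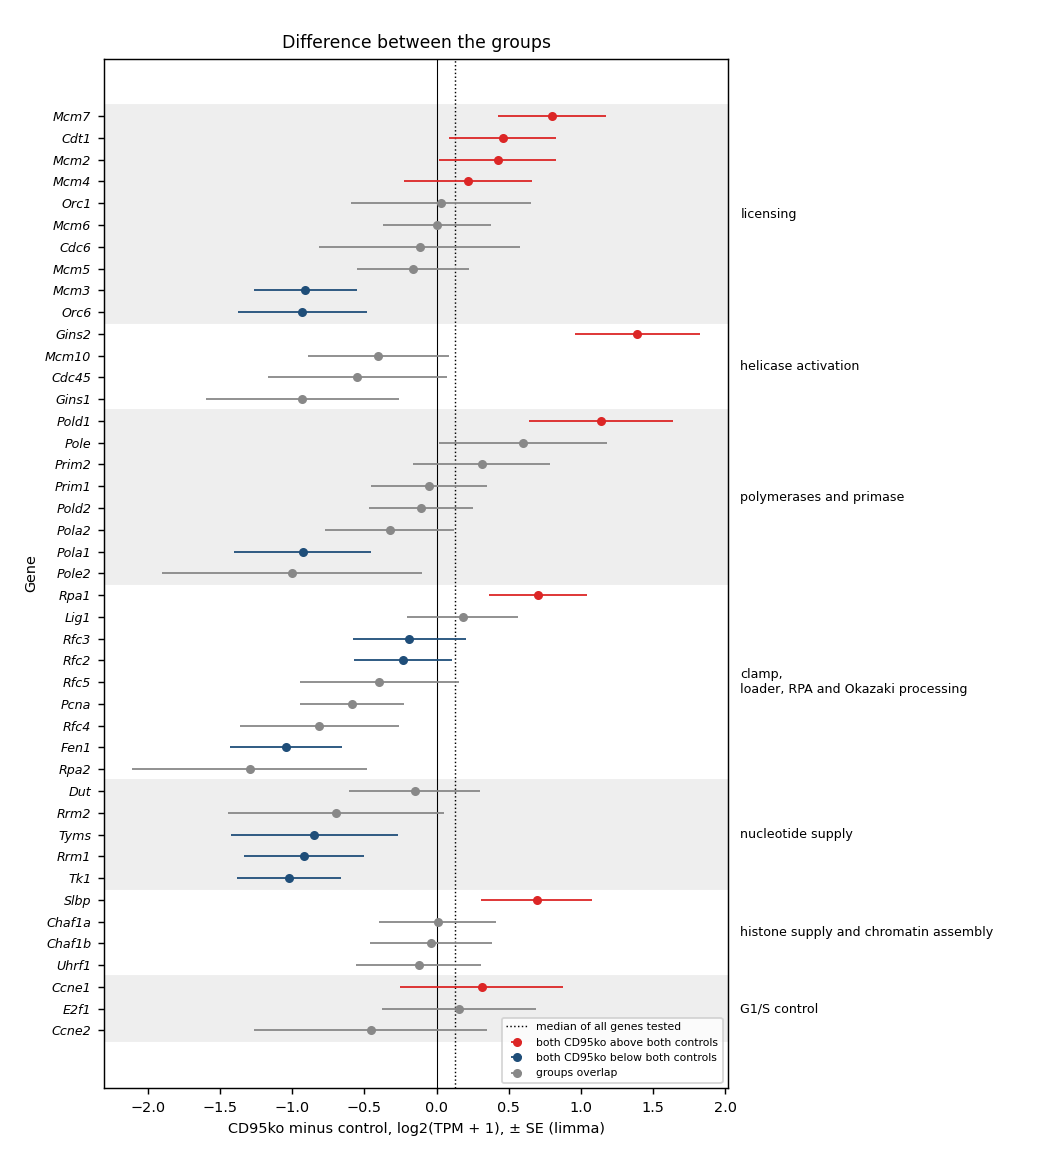
Difference between the CD95ko and control means for each gene in log2(TPM + 1), with bars of 1 SE from limma. Red marks genes whose CD95ko values both lie above both controls, blue those below, grey those that overlap, and the dotted line is the median of all genes tested (0.13); all 5 nucleotide supply genes lie left of 0, while the licensing genes lie on both sides.

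Origin licensing is represented by the origin recognition subunits Orc1 and Orc6, the loaders Cdc6 and Cdt1, and Mcm2 to Mcm7, the subunits of the helicase ring. Of its 10 genes 0 passed the adjusted threshold, 4 lay above both controls (Cdt1, Mcm2, Mcm4 and Mcm7) and 2 lay below (Mcm3 and Orc6). Over all genes tested, 29.2% lay above both controls and 18.3% below. The median log2 difference was 0.02. Mcm3 (chr1:20802968-20820312, reverse strand) was at 67.8 and 69.3 TPM in the controls, 40.2 TPM in CD95ko 1 and 32.2 TPM in CD95ko 2. The controls agreed closely and both CD95ko libraries were lower (log2 difference -0.91 ± 0.36 SE, limma adjusted p = 0.280). Mcm7 (chr5:138164583-138172422, reverse strand) was at 80.5 and 47.8 TPM in the controls, 121 TPM in CD95ko 1 and 98.1 TPM in CD95ko 2. It was higher in both CD95ko libraries, but the controls differed from each other by almost as much (log2 difference 0.80 ± 0.37 SE, limma adjusted p = 0.358). Of the 25-nucleotide stretches of Mcm7 transcripts, 30.5% also occur in transcripts of other genes, above all Gm5487, so its value is less certain. Gm5487 is not among the genes listed for these libraries, and how such reads were counted was not tested.

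Orc6, a subunit of the origin recognition complex, was at 49.2 and 44.0 TPM in the controls, 34.0 TPM in CD95ko 1 and 16.7 TPM in CD95ko 2. Both CD95ko libraries were below the controls, CD95ko 2 by more (log2 difference -0.93 ± 0.45 SE, limma adjusted p = 0.372). Of the remaining ring subunits, Mcm2 was at 31.8 and 24.4 TPM in the controls and at 43.9 and 32.2 TPM in CD95ko 1 and 2, with control 1 just under CD95ko 2. Mcm4, the least abundant subunit in every library, was between 15.5 and 20.1 TPM. Mcm6 was at 58.3 and 63.5 TPM in the controls and at 77.1 and 48.0 TPM in CD95ko 1 and 2, so the CD95ko values lay on either side of the controls. Mcm5 did the same, at 53.2 and 64.4 TPM against 67.7 and 40.2 TPM. Cdt1, which brings the helicase to origins and is degraded in S phase, was at 120 and 66.6 TPM in the controls and at 122 and 125 TPM in CD95ko 1 and 2. Control 2 stood apart there, and the other three libraries were alike. Orc1 (2.61 to 5.56 TPM) and Cdc6 (0.72 to 2.40 TPM) were weakly expressed in all libraries, with groups that overlapped.

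In helicase activation, Mcm10, Cdc45 and the GINS subunits Gins1 and Gins2 convert the loaded ring into the moving helicase. None of the 4 passed the adjusted threshold, and the 2 GINS subunits differed in opposite directions. Gins2 (chr8:120578633-120589304, reverse strand) was at 26.9 and 18.3 TPM in the controls, 45.8 TPM in CD95ko 1 and 78.0 TPM in CD95ko 2. Both CD95ko libraries lay above the controls, and this was the largest positive difference among the members (log2 difference 1.39 ± 0.43 SE, limma adjusted p = 0.209). Annotated exons of Gse1 on the opposite strand cover 67.3% of the exonic bases of Gins2, and whether the counting used strand is not given in the sources used here. Gse1 itself was listed at 16.4 and 7.84 TPM in the controls and at 12.1 and 17.8 TPM in CD95ko 1 and 2, and its part in the value of Gins2 was not tested.

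Gins1, the partner of Gins2 in the same complex, was at 12.1 and 17.7 TPM in the controls, 14.5 TPM in CD95ko 1 and 3.36 TPM in CD95ko 2. CD95ko 1 lay between the controls, and CD95ko 2 alone was low (log2 difference -0.93 ± 0.67 SE, limma adjusted p = 0.545). Cdc45, the helicase cofactor that GINS accompanies, was at 21.3 and 10.6 TPM in the controls and at 16.8 and 5.84 TPM in CD95ko 1 and 2, with the second library of each pair the lower one (log2 difference -0.55 ± 0.62 SE, limma adjusted p = 0.714, and 0.14 without CD95ko 2). Mcm10, a replication initiation factor, was at 17.3 and 15.7 TPM in the controls and at 15.8 and 9.41 TPM in CD95ko 1 and 2.

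Among the polymerases, polymerase alpha and primase (Pola1, Pola2, Prim1 and Prim2) lay down primers, polymerase epsilon (Pole and Pole2) extends the leading strand and polymerase delta (Pold1 and Pold2) the lagging strand. Of these 8 genes 0 passed the adjusted threshold, 1 lay above both controls and 1 below, beside 29.2% and 18.3% of all genes. The catalytic subunits of delta and alpha differed in opposite directions. Pold1 (chr7:44532746-44548849, reverse strand), the catalytic subunit of delta, was at 9.38 and 14.9 TPM in the controls, 20.2 TPM in CD95ko 1 and 36.5 TPM in CD95ko 2. Both CD95ko libraries were higher, CD95ko 2 by more (log2 difference 1.14 ± 0.50 SE, limma adjusted p = 0.333). Pola1, the catalytic subunit of alpha, was at 19.9 and 20.2 TPM in the controls, 11.9 TPM in CD95ko 1 and 8.48 TPM in CD95ko 2. Here too the controls agreed and both CD95ko libraries were lower (log2 difference -0.93 ± 0.47 SE, limma adjusted p = 0.393).

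Pole2, the accessory subunit of polymerase epsilon, was at 4.42 and 4.04 TPM in the controls and 5.84 TPM in CD95ko 1, and was listed at 0 in CD95ko 2. The zero belongs to 1 library, and CD95ko 1 was above both controls (log2 difference -0.999 ± 0.90 SE, limma adjusted p = 0.634). This value was -2.49 ± 1.86 SE with a pseudocount of 0.1, and 0.39 without CD95ko 2. Its catalytic partner Pole was at 10.3 and 4.65 TPM in the controls and at 14.2 and 8.57 TPM in CD95ko 1 and 2. The second delta subunit, Pold2, ranged from 56.0 to 81.8 TPM with overlapping groups. Prim1, the catalytic primase subunit, ranged from 28.3 to 43.2 TPM, its partner Prim2 from 15.5 to 28.0 TPM and the polymerase alpha subunit Pola2 from 16.6 to 30.6 TPM, all with overlapping groups.

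The clamp, its loader, RPA and the enzymes of Okazaki fragment processing make up 9 genes. Of these 0 passed the adjusted threshold, 1 lay above both controls (Rpa1) and 3 below (Fen1, Rfc2 and Rfc3). The shares over all genes tested were 29.2% above and 18.3% below. Fen1 (chr19:10199132-10204169, reverse strand), the nuclease that trims the flaps of Okazaki fragments, was at 49.6 and 64.1 TPM in the controls, 31.0 TPM in CD95ko 1 and 23.2 TPM in CD95ko 2. Both CD95ko libraries lay under the controls (log2 difference -1.04 ± 0.39 SE, limma adjusted p = 0.267). Exons of Tmem258 and Gm10143 on the opposite strand cover 84.2% of the exonic bases of Fen1. Tmem258 was listed at 155 and 182 TPM in the controls and at 275 and 209 TPM in CD95ko 1 and 2, and its part in the value of Fen1 was not tested.

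Rpa1, the large subunit of the complex that coats single-stranded DNA, was at 45.6 and 45.7 TPM in the controls, 78.0 TPM in CD95ko 1 and 71.8 TPM in CD95ko 2. Libraries of a group agreed closely, and the groups were apart (log2 difference 0.70 ± 0.34 SE, limma adjusted p = 0.376). Rpa2, the middle subunit of the same complex, was at 16.7 and 18.3 TPM in the controls and 18.4 TPM in CD95ko 1, but at 1.93 TPM in CD95ko 2. Only 1 of the 2 clones thus had a low value of Rpa2. Pcna, the sliding clamp, was at 152 and 238 TPM in the controls and at 156 and 102 TPM in CD95ko 1 and 2. CD95ko 1 lay between the controls (log2 difference -0.59 ± 0.36 SE, limma adjusted p = 0.478). Of the 25-nucleotide stretches of Pcna transcripts, 25.1% are shared with other genes, mostly the pseudogene Pcna-ps2, which is not among the genes listed.

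The clamp loader genes Rfc2 to Rfc5 differed in how their 4 values were arranged. Rfc4 was at 48.2 and 50.3 TPM in the controls and 50.8 TPM in CD95ko 1, but at 14.8 TPM in CD95ko 2. Rfc5 was at 62.6 TPM in control 1 and 50.5 TPM in CD95ko 1, and at 28.4 TPM in control 2 and 19.9 TPM in CD95ko 2, so its difference followed no group. Rfc2 stayed between 52.9 and 66.5 TPM and Rfc3 between 26.9 and 34.2 TPM. Lig1, the ligase that seals Okazaki fragments, was between 32.1 and 43.8 TPM with overlapping groups.

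The 5 genes of nucleotide supply all had a negative difference, as did 4759 of the 11167 genes tested. The median of the 5 genes was -0.85, and it was -0.17 for CD95ko 1 and -1.40 for CD95ko 2 taken singly. For 3 of them (Tk1, Rrm1 and Tyms), both CD95ko values lay under both controls, beside 18.3% of all genes tested. None passed the adjusted threshold. Tk1 (chr11:117815526-117826092, reverse strand), the thymidine kinase of dividing cells, was at 142 and 134 TPM in the controls, 87.6 TPM in CD95ko 1 and 51.6 TPM in CD95ko 2. The controls were close and both CD95ko libraries were lower (log2 difference -1.03 ± 0.36 SE, limma adjusted p = 0.246). Rrm1, the large subunit of ribonucleotide reductase, was at 47.6 and 59.7 TPM in the controls and at 35.99 and 21.3 TPM in CD95ko 1 and 2. Both CD95ko values lay under the controls (log2 difference -0.92 ± 0.41 SE, limma adjusted p = 0.343). Their summed level came to 275 and 294 TPM in control 1 and 2, and to 237 and 113 TPM in CD95ko 1 and 2.

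Rrm2, the small ribonucleotide reductase subunit whose level sets the activity of the enzyme in S phase, was at 40.3 and 28.9 TPM in the controls, 52.6 TPM in CD95ko 1 and 7.75 TPM in CD95ko 2. The CD95ko libraries lay on opposite sides of the controls. Tyms, thymidylate synthase, was at 15.3 and 18.5 TPM in the controls, 14.9 TPM in CD95ko 1 and 5.17 TPM in CD95ko 2. CD95ko 1 was just under the lower control, and CD95ko 2 was well under it (log2 difference -0.85 ± 0.58 SE, limma adjusted p = 0.523). Dut, which removes dUTP from the nucleotide pool, was at 29.6 and 52.4 TPM in the controls and at 46.2 and 27.1 TPM in CD95ko 1 and 2.

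The 4 genes of histone supply and chromatin assembly had a median log2 difference of -0.02. For 1 of them, Slbp, the groups did not overlap, beside 47.6% of all genes tested. Slbp, which binds the stem-loop of histone mRNAs, was at 31.7 and 24.2 TPM in the controls and at 43.6 and 47.2 TPM in CD95ko 1 and 2. Both CD95ko libraries were higher (log2 difference 0.69 ± 0.38 SE, limma adjusted p = 0.432). Chaf1b, a subunit of the chaperone CAF-1 that puts histones on new DNA, was the steadiest of this group, at 24.5 and 20.5 TPM in the controls and 22.2 and 21.4 TPM in CD95ko 1 and 2 (log2 difference -0.04 ± 0.42 SE, limma adjusted p = 0.976, and 0.08 without control 1). Uhrf1, which guides DNA methylation to new strands, was at 22.3 and 34.4 TPM in the controls and at 29.0 and 22.1 TPM in CD95ko 1 and 2 (log2 difference -0.12 ± 0.43 SE, limma adjusted p = 0.920, with 0.18 without control 2 and 0.07 without CD95ko 2). Of the 25-nucleotide stretches of Uhrf1 transcripts, 28.2% are shared with other genes, mainly Gm5648, which is not among the genes listed. Apart from Mcm7, Uhrf1 and Pcna, this share was at most 15.5% among the members (Rrm2). The larger CAF-1 subunit Chaf1a was between 28.1 and 39.9 TPM, and exons of Ubxn6 on the opposite strand cover 52.5% of it.

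At the G1/S transition, cyclin E (Ccne1 and Ccne2) and E2f1 act upstream of the other genes. Ccne1 was at 5.04 and 4.14 TPM in the controls and at 6.67 and 5.23 TPM in CD95ko 1 and 2 (log2 difference 0.31 ± 0.57 SE, limma adjusted p = 0.839, and 0.06 under quantile normalization). Both CD95ko values were above the controls by a small step. Ccne2 was at 2.37 and 0.64 TPM in the controls, was listed at 0 in CD95ko 1 and stood at 1.93 TPM in CD95ko 2 (log2 difference -0.46 ± 0.81 SE, limma adjusted p = 0.834, with -1.59 at a pseudocount of 0.1, 0.06 without control 1 and 0.32 without CD95ko 1). E2f1, a transcription factor of the G1/S programme and itself an E2F target, was at 17.3 and 18.3 TPM in the controls, 12.3 TPM in CD95ko 1 and 31.9 TPM in CD95ko 2. The controls agreed, and the CD95ko libraries lay on either side of them (log2 difference 0.15 ± 0.53 SE, limma adjusted p = 0.919, with -0.05 under quantile normalization and -0.50 without CD95ko 2).

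The 2 CD95ko libraries also differed from each other. CD95ko 2 was the lowest of the 4 libraries for 25 of the 43 genes (58.1%), beside 30.4% of all genes tested, while control 2 was the lowest for 9 (20.9%), beside 44.2%. CD95ko 2 was under CD95ko 1 for 33 of 43 genes (76.7%), beside 55.1% of all genes. Their median log2 difference, CD95ko 2 minus CD95ko 1, was -0.44 over the members and -0.10 over all genes. Each side is 1 library, so no test was made.

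A log2 difference of 1 or more between the CD95ko libraries was counted as 2-fold. By that count 8 members were lower in CD95ko 2 (Pole2, Rpa2, Rrm2, Gins1, Rfc4, Cdc45, Tyms and Rfc5), where 13.4% of all genes tested were, and 2 were higher (Ccne2 and E2f1), where 9.91% were. The 8 genes come from 4 of the 7 roles: helicase activation, polymerases, clamp loading with RPA, and nucleotide supply. No licensing gene passed the 2-fold limit, but Orc6 and Cdc6 missed it narrowly (-0.98 each), and 9 of the 10 licensing genes were lower in CD95ko 2. Between the controls, 2 members were 2-fold lower in control 2 (Rfc5 and Ccne2), where 12.6% of all genes were, and 0 were 2-fold higher, where 1.84% were. The SD of the difference over the members was 0.93 for the CD95ko pair and 0.48 for the control pair, beside 1.04 and 0.66 over all genes.

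**Figure D3:**
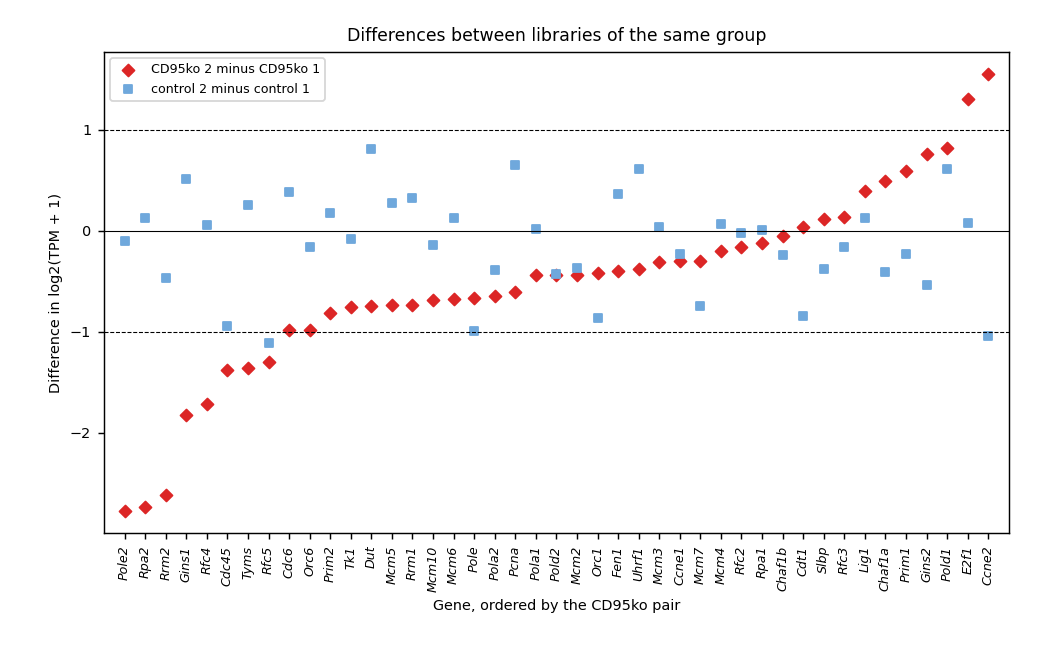
Difference in log2(TPM + 1) between the 2 CD95ko libraries (diamonds) and between the 2 control libraries (squares) for each gene, ordered by the CD95ko pair, with dashed lines at a 2-fold difference. At the left, 8 genes lie under the lower dashed line in the CD95ko pair, down to Pole2, Rpa2 and Rrm2, while most control differences stay between the dashed lines.

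When CD95ko 1 was left out, so that CD95ko 2 alone stood against both controls and was assumed to vary as they do, 6 of the 43 members passed an adjusted p of 0.05 in limma (14.0%, beside 9.26% of all genes tested). These were Tk1, Rpa2, Rrm2, Pole2 and Rfc4, which were lower, and Gins2, which was higher. Rpa2 then differed by -2.66 ± 0.71 SE on the log2 scale (limma adjusted p = 0.0269) and Tk1 by -1.40 ± 0.37 SE (limma adjusted p = 0.0260). When CD95ko 2 was left out instead, 0 members passed, although 1.74% of all genes did. The median log2 difference of the members was then 0.07, against -0.32 without CD95ko 1. With either control left out, 0 members and 0 genes passed.

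Several members encode subunits of 1 complex, so their transcripts were also compared within each library, as ratios of TPM. The 4 pairs were chosen after their values were seen. Mcm7 was 1.19 and 0.689 times Mcm3 in control 1 and 2, and 3.00 and 3.05 times Mcm3 in CD95ko 1 and 2, so this ratio was alike in both clones and apart from the controls. Rpa2 stood at 0.367 and 0.401 of Rpa1 in the controls, at 0.236 in CD95ko 1 and at 0.0269 in CD95ko 2. Gins2 was 2.21 and 1.03 times Gins1 in the controls, 3.17 times in CD95ko 1 and 23.2 times in CD95ko 2. Rrm2 was 0.847 and 0.484 of Rrm1 in the controls, 1.46 in CD95ko 1 and 0.365 in CD95ko 2, with no order by group. Over the whole MCM ring, the summed level was 307 and 286 TPM in the controls and 370 and 268 TPM in CD95ko 1 and 2, so the sum overlapped between the groups.

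**Figure D4:**
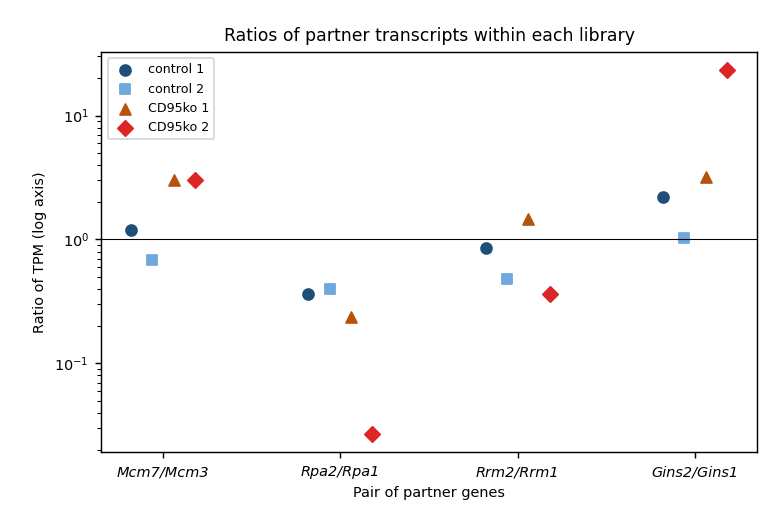
Ratio of TPM of 2 partner genes within each library, on a log axis, for Mcm7 to Mcm3, Rpa2 to Rpa1, Rrm2 to Rrm1 and Gins2 to Gins1. Both CD95ko libraries lie near 3 for Mcm7 to Mcm3, above both controls, whereas for Rpa2 to Rpa1 and Gins2 to Gins1 it is CD95ko 2 that lies far from the other libraries.

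Further genes of replication and the cell cycle were taken from 7 lists, which hold none of the 43 members. None of their genes passed the adjusted threshold in the comparison as reported. Without CD95ko 1, the genes of these lists named below, other than Chtf18, E2f4, Lin37 and Prc1, passed it. At an unadjusted p under 0.05, 9.25% of all genes tested were higher and 5.68% lower, for comparison with each list. The median log2 difference over all genes was 0.13. Of 42 tested other replication factors, 3 were higher and 3 lower at this limit (14.3%, beside 14.9% of all genes). Their median log2 difference was -0.02. Chtf18, part of an alternative clamp loader, was at 7.69 and 4.64 TPM in the controls and at 21.9 and 20.2 TPM in CD95ko 1 and 2 (limma adjusted p = 0.202). Tipin, a fork protection factor, was at 69.7 and 49.4 TPM in the controls and at 29.8 and 17.8 TPM in CD95ko 1 and 2 (limma adjusted p = 0.223). Both genes had groups that did not overlap.

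Of 26 tested nucleotide synthesis genes, 1 was higher and 5 were lower at an unadjusted p under 0.05 (23.1%, beside 14.9% of all genes). Their median log2 difference was -0.42. Differences were negative in 20 of the 26 genes, beside 4759 of the 11167 genes tested, and CD95ko 2 was the lowest library in 20 (76.9%, beside 30.4%). The median was -0.18 for CD95ko 1 and -0.76 for CD95ko 2, each against the controls. Nme1, which phosphorylates nucleoside diphosphates, was at 601 and 621 TPM in the controls and at 273 and 171 TPM in CD95ko 1 and 2 (log2 difference -1.49 ± 0.32 SE, limma adjusted p = 0.136). Dtymk, thymidylate kinase, was at 245 and 337 TPM in the controls and at 125 and 98.6 TPM in CD95ko 1 and 2 (log2 difference -1.36 ± 0.32 SE, limma adjusted p = 0.144). Both were lower in each CD95ko library than in each control.

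Of 17 tested RB and E2F genes, 2 were higher and 1 lower at an unadjusted p under 0.05 (17.6%, beside 14.9% of all genes). Their median log2 difference was -0.51. The groups did not overlap for 15 of the 17, 4 higher and 11 lower, beside 29.2% higher and 18.3% lower over all genes tested. E2f4, a member of the E2F family, was at 164 and 157 TPM in the controls and at 104 and 76.8 TPM in CD95ko 1 and 2 (limma adjusted p = 0.273). Lin37, a subunit of the MuvB complex that represses cell cycle genes, was at 13.4 and 8.82 TPM in the controls and at 17.7 and 44.5 TPM in CD95ko 1 and 2 (limma adjusted p = 0.318). Of 17 tested G1 cyclins, kinases and inhibitors, 1 was higher and 2 were lower (17.6%, beside 14.9% of all genes). Myc, a transcription factor that drives cell growth, was at 716 and 659 TPM in the controls and at 311 and 106 TPM in CD95ko 1 and 2 (log2 difference -1.91 ± 0.46 SE, limma adjusted p = 0.147). Cdkn2c, an inhibitor of CDK4 and CDK6, was at 88.9 and 105 TPM in the controls and at 197 and 223 TPM in CD95ko 1 and 2 (log2 difference 1.11 ± 0.31 SE, limma adjusted p = 0.171).

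Of 25 tested checkpoint and repair genes, 2 were higher and 3 lower at an unadjusted p under 0.05 (20%, beside 14.9% of all genes). Their median log2 difference was 0.05. Rad9a, a subunit of the checkpoint clamp, was at 91.9 and 77.1 TPM in the controls and at 34.1 and 20.4 TPM in CD95ko 1 and 2 (limma adjusted p = 0.147). It was lower in each clone than in either control. Of 27 tested G2 and mitosis genes, 0 were higher and 4 lower (14.8%, beside 14.9% of all genes), with a median log2 difference of -0.18. Aurka, a spindle kinase, was at 83.1 and 76.0 TPM in the controls and at 44.8 and 27.01 TPM in CD95ko 1 and 2 (limma adjusted p = 0.229). Prc1, which bundles microtubules in anaphase, was at 78.2 and 72.9 TPM in the controls and at 46.3 and 31.5 TPM in CD95ko 1 and 2 (limma adjusted p = 0.273).

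Histone genes of the replication-dependent clusters, whose mRNAs end in the stem-loop bound by Slbp rather than in a poly(A) tail, were listed for 68 symbols, and 34 were tested. Of these 3 were higher and 9 lower at an unadjusted p under 0.05 (35.3%, beside 14.9% of all genes). These genes had groups that did not overlap in 14 of 34 cases (41.2%, beside 47.6% of all genes), 4 higher and 10 lower. Their median log2 difference was -0.68, with single values from -3.84 to 3.13. Their summed level was 3022 and 5083 TPM in control 1 and 2, 1166 TPM in CD95ko 1 and 898 TPM in CD95ko 2, below both controls in each clone. Hist1h2ao held most of it, at 2649 and 4544 TPM in the controls and at 850 and 497 TPM in CD95ko 1 and 2 (log2 difference -2.42 ± 0.37 SE, limma adjusted p = 0.0629). The sum therefore follows mainly this gene, and it does not describe the other histone genes, which were not summed apart from it. Hist1h3b stood at 19.1 and 9.15 TPM in control 1 and 2, with 0 listed for each CD95ko library (limma adjusted p = 0.0679). Hist1h2ao passed with 1 TPM in at least 1 library (limma adjusted p = 0.0402), with a mean of at least 5 TPM (0.0278) and with robust eBayes (0.0258), and Hist1h3b with robust eBayes (0.0445). In the other alternatives with all libraries neither passed. The limma adjusted p there was 0.143 to 0.200 for Hist1h2ao and 0.052 to 0.192 for Hist1h3b. Without CD95ko 2, the log2 differences were -2.03 for Hist1h2ao and -3.84 for Hist1h3b. Histone genes are near-identical copies, so reads may be divided among them unevenly, and poly(A) capture samples them poorly. Slbp itself was higher in both CD95ko libraries, as given above.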

How the data were processed

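RNA was measured by poly(A)-selected, PCR-amplified RNA-seq without stated molecular identifiers, in 1 library per sample. The deposited unit is TPM, per the file headers. STAR 2.6.0, RSEM 1.3.0 and the build mm10 are named in the submitters' processing notes, and the annotation and strand setting are not given in the sources used here. TPM keeps no read number, so no counting intervals or detection limits were given. Groups came from the titles. Per the protocols, the libraries of a group come from different lines or clones, and repeat cultures of a line or clone are not stated. The p-values thus measure only the spread between these libraries, which includes differences between lines or clones.

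Genes with at least 1 TPM in at least 2 libraries (11167, all 43 members included) were transformed to log2(TPM + 1), which understates changes of weak genes. CD95ko was compared with control in limma 3.58.1 (R 4.3.3; lmFit, eBayes with trend), two-sided, with Benjamini-Hochberg adjustment over all genes tested and a threshold of 0.05. The procedure was run on data simulated with the spread of its own model. This checks the calculation and cannot show how the test performs on clones. An exact permutation test of 2 against 2 libraries cannot go below 0.333. Values for pairs of libraries, lists and ratios are descriptions.

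Members and lists were chosen with earlier results of these data known. Statistics are given for the 3 members per role with the smallest unadjusted p, for the 2 genes per further list chosen likewise, and for Fas. For the checkpoint and repair list, 1 of these genes is not reported here. Pclaf was matched by an older symbol through the RefSeq gene table. Gene positions, exon overlaps and shared 25-nucleotide stretches came from GENCODE M21 (GRCm38), promoters from RefSeq (GRCm38.p6). Alternatives were another pseudocount, other filters, eBayes without trend or robust, quantile normalization, rescaling without ribosomal protein genes, the replicate block, and leaving out each library.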

Additional observations from a re-analysis of the deposited data

How the results depend on the processing

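The count of members past the adjusted threshold was 0 under every alternative that used all 4 libraries, and 0 to 6 with a library left out (6 without CD95ko 1). The number of genes past it, 6 as reported, was 0 in 5 limma settings, where the unadjusted p was under 0.05 for 1553 genes (pseudocount 0.1), 1636 (no filter), 1531 (no trend), 1862 (quantile normalization) and 1678 (rescaled without ribosomal protein genes), beside 1667 as reported; it was 38 with 1 TPM in at least 1 library, 55 with a mean of at least 5 TPM, 52 with robust eBayes, 2 with the replicate block, and 0 to 1034 with a library left out (1034 without CD95ko 1, 194 without CD95ko 2). Members at an unadjusted p under 0.05, 5 as reported, numbered 2 without the trend and 0 to 14 with a library left out, and 4 to 7 otherwise. Members whose groups do not overlap, 18 as reported, numbered 17 or 18 with all libraries (6 higher and 12 lower under quantile normalization, against 9 and 9). They numbered 25 to 39 with a library left out, which can only raise this count. The share over all genes tested was 43 to 51.4% with all libraries and 68.8 to 78.9% with a library left out. The median log2 difference of the members ranged from -0.25 to -0.15 with all libraries and from -0.32 to 0.0705 with a library left out, positive only without CD95ko 2. Quantile normalization moved the median of all genes from 0.13 to 0.002, and turned the median of control 2 minus control 1 over the members from -0.08 to 0.30, while that of CD95ko 2 minus CD95ko 1 stayed between -0.48 and -0.40.

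Replicate numbers gave no pairing (correlation of deviations of same-numbered libraries -0.08 over 11167 genes). With the replicate block, 2 genes and 0 members passed, and 5 members had an unadjusted p under 0.05. Of 466 values of the 36 named genes under the alternatives, 437 kept their direction and side of the threshold, 19 newly passed it (most without CD95ko 1, and with all libraries only Hist1h2ao and Hist1h3b), 0 lost it and 10 changed sign. E2f1 went to -0.054 under quantile normalization. With a library left out, the range was -0.50 to 0.8075 for E2f1, -0.16 to 0.0831 for Chaf1b, -1.23 to 0.32 for Ccne2, -0.43 to 0.18 for Uhrf1, -1.42 to 0.16 for Fas, -1.24 to 0.14 for Cdc45 and -2.39 to 0.39 for Pole2. The cause was not tested. Depth is unknown, so a gene listed at 0 cannot be placed against what a library could detect.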
